A study of Mus musculus with 14 samples.

Results

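The S100 proteins are small calcium sensors, and their genes were followed here in mouse hippocampus and heart at 2 ages. The family was taken as 10 genes, S100a1, S100a4, S100a6, S100a8, S100a9, S100a10, S100a11, S100a13, S100a16 and S100b, and every probe set annotated with exactly 1 of them was kept. This gave 14 probe sets of 9 genes, out of 45101 probe sets on the array. S100a11 has no value below, because its only probe set, 1460351_at, is annotated with 3 genes (Gm12854, S100a11-ps and S100a11). The family was selected on values of these arrays, in which S100a10 had one of the deepest decreases in adult hippocampus, so the values of the members are given as descriptions and nothing is read from their count in that comparison.

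An S100 protein folds around paired calcium-binding loops called EF hands, works mostly as a dimer, and exposes a binding surface for its partners once calcium is bound. Members differ in the cells that make them. S100A1 is the cardiac member and acts on calcium release and uptake in the sarcoplasmic reticulum, S100B is made by astrocytes and other glia, and S100A8 with S100A9 form calprotectin, an abundant protein of neutrophils. S100A10 is the exception in the family: it has lost calcium binding and holds annexin A2 in a complex at the plasma membrane.

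RNA came from C57BL/6 mice with no genetic change or treatment in any group. Adult hippocampus and adult heart came from males of 10 weeks, as purchased RNA, with 2 biological replicates of each tissue run on 2 technical arrays apiece. Pup hippocampus and pup heart came from mice of 7 days, with 3 biological replicates and 1 array each, and their mRNA was extracted from dissected tissue. The sex of the pups is not given in the sources used here. Nothing in those sources says that the 2 adult replicates of a tissue came from separate animals, so p-values cover only the variation among these samples and that variation may be technical. Age goes together with the source of the RNA, its preparation and its arrays, and these cannot be told apart. Values are log2 levels, paired technical arrays of adults enter as their average, and a difference is the mean of the first group named minus that of the second.

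The 14 arrays spanned 2.67 to 15.998 on the log2 scale, and the medians of the 10 samples lay between 8.73 and 8.98. Added control transcripts, which carry no tissue RNA, differed with age as well: the 18 hybridization control probe sets averaged 2.35 lower in adult than in pup hippocampus and 2.43 lower in adult than in pup heart on the log2 scale. Tissue markers followed the labels in part. Of 8 cardiomyocyte genes, 7 were lower in adult hippocampus than in adult heart and 8 were lower in pup hippocampus than in pup heart. Among the 7, Tnnt2 had another probe set that was higher in adult hippocampus (1.66). Of 6 neuron genes, 3 were higher in adult hippocampus than in adult heart, 4 were higher in the same comparison of pups, and 0 were lower in either. Rbfox3 was among those that did not separate the tissues (-0.30 in adults and -0.11 in pups). Pup hippocampus nevertheless held cardiac transcripts. The mean log2 level of the 8 cardiomyocyte genes was 8.11 and 8.02 in adult hippocampus, against 11.04, 9.60 and 8.54 in pup hippocampus replicates 1, 2 and 3. It was 14.27 and 13.86 in adult heart, against 15.36, 15.08 and 15.49 in pup heart.

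In the genome, 9 of the 10 genes lie on mouse chromosome 3 and S100b lies apart at chr10:76253836-76261319 (GRCm38.p6). Of the chromosome 3 genes, 7 are packed into 184.7 kb, from S100a1 at chr3:90511034-90514330 to S100a9 at chr3:90692630-90695721, in the order S100a1, S100a13, S100a16, S100a4, S100a6, S100a8 and S100a9. S100a11 at chr3:93520496-93526288 and S100a10 at chr3:93555117-93564645 lie further along. S100a1 on the minus strand and S100a13 on the plus strand point away from each other, and their annotated genes overlap by 98 bases.

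Promoter windows of 4 members are shown because these genes carry the contrasts described below: S100a1, whose window shares 204 bases with that of S100a13, S100a8 and S100a9, which stood out together in 1 heart, and S100b, of which 1 probe set was called for a difference between the age differences of the tissues. Each runs from 250 bases before the annotated start to 50 bases after it, from RefSeq on GRCm38.p6, written in the direction of the gene (S100a1 at chr3:90514281-90514580, minus strand, S100a8 at chr3:90668821-90669120, plus strand, S100a9 at chr3:90695672-90695971, minus strand, and S100b at chr10:76253586-76253885, plus strand). Capitals mark the TATA box letters (TATAAA), the CCAAT box letters (as named) or the GC box letters (GGGCGG) on either strand, and no match overlaps another.
S100a1: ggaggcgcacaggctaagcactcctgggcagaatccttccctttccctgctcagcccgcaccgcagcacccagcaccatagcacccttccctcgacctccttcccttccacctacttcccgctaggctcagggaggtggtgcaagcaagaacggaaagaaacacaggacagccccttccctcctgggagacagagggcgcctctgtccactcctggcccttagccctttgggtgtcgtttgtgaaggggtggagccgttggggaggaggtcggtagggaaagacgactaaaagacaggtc
S100a8: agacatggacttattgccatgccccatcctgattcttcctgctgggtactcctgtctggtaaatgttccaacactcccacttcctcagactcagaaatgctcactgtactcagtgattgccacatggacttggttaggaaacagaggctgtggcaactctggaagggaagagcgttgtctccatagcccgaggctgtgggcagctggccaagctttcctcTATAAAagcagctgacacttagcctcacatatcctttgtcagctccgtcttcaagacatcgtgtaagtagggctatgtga
S100a9: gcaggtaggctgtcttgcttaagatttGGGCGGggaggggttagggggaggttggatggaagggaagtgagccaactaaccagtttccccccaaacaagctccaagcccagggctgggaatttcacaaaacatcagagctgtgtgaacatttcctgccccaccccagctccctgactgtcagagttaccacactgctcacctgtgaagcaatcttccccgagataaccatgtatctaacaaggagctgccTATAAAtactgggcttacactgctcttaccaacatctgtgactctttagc
S100b: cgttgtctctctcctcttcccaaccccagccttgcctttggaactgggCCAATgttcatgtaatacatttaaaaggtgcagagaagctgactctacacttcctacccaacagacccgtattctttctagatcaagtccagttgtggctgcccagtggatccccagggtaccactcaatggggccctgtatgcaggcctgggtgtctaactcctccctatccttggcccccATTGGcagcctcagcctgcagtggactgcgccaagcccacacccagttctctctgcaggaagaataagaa

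The S100a1 window held none of the 3 motifs. TATAAA stood at position -30 in the S100a8 window and at position 0 in the S100a9 window, counted from the annotated start, and at -31 in the window of S100a4, which is not printed. CCAAT on either strand stood at -202 and -20 in the S100b window. Among all 32851 windows of this length, 13.6% held TATAAA, 37.4% CCAAT and 35.7% GGGCGG on either strand, so such matches are a description of the sequence only.

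**Figure D1:**
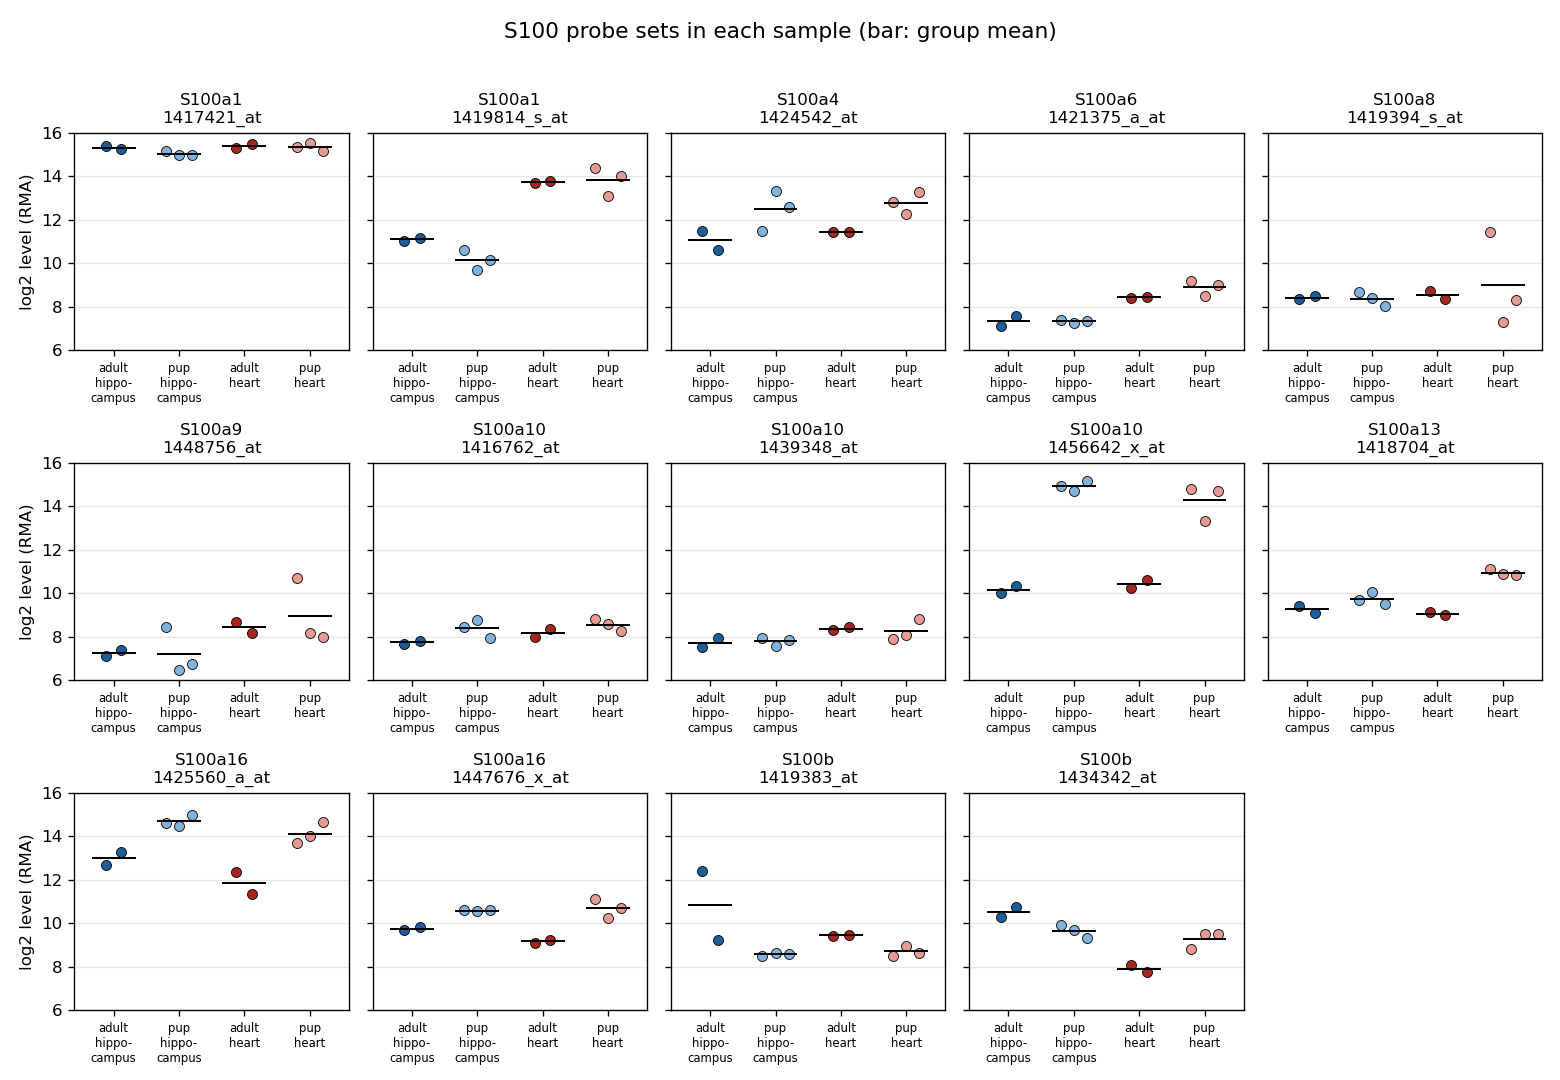
Log2 level (RMA, y axis) of each of the 14 S100 probe sets in 2 adult hippocampus, 3 pup hippocampus, 2 adult heart and 3 pup heart samples. Points are samples and bars are group means. S100a10 1456642_x_at separates the ages in both tissues, S100a1 1419814_s_at separates the tissues at both ages, and levels of different probe sets are not comparable.

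In hippocampus 0 of 14 family probe sets were higher and 2 were lower in adults than in pups, against 8.38% higher and 6.52% lower of all 45037 probe sets tested. The 2 include the S100a10 probe set for which the family was selected. In heart 0 were higher and 5 were lower in adults than in pups, against 11.7% higher and 8.32% lower of all. Here and below, called means a Benjamini-Hochberg adjusted p under 0.05 over all probe sets in limma, a linear model with a shared estimate of the spread. The methods' t-test on the same values, after the same adjustment, kept 3 of the 13 family calls of age or tissue. The median difference over the 14 probe sets was -0.02 in hippocampus and -0.49 in heart, against 0.12 and 0.11 over all probe sets. Among all calls in heart, 58.4% were higher in adults as deposited and 47.5% after each array was centred on its median and scaled by its range.

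Between tissues, adult hippocampus against adult heart gave 1 higher and 2 lower of 14, with 10.3% higher and 11.9% lower of all. Pup hippocampus against pup heart gave 0 higher and 3 lower, with 7.52% higher and 6.77% lower of all. The age difference in hippocampus exceeded that in heart for 1 of 14 and fell below it for 0, with 1.18% and 2.37% of all. Median differences of the 14 probe sets were -0.20 between the adult tissues and -0.30 between the pup tissues, against -0.06 and -0.10 over all, and 0.53 for the difference between the age differences, against 0.02.

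Several of these calls came from probe sets of the types a, s and x, whose probes can match more than 1 transcript, and 6 of the 14 are of these types. Without them the counts over the 8 remaining probe sets were 0 for age in hippocampus, 2 for age in heart, and 1 for tissue at each age. In the fit over all probe sets, the remaining type was called higher in 8.77% and lower in 5.01% for age in hippocampus. The shares were 12.2% and 6.29% for age in heart, 9.93% and 11.8% for tissue in adults, and 6.99% and 6.31% for tissue in pups. The types a, s and x also fell with age more often across the array. In hippocampus 19% of the 2441 x-type probe sets were lower in adults against 5.01% of the 36082 plain ones, and in heart the shares were 21.5% and 6.29%.

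**Figure D2:**
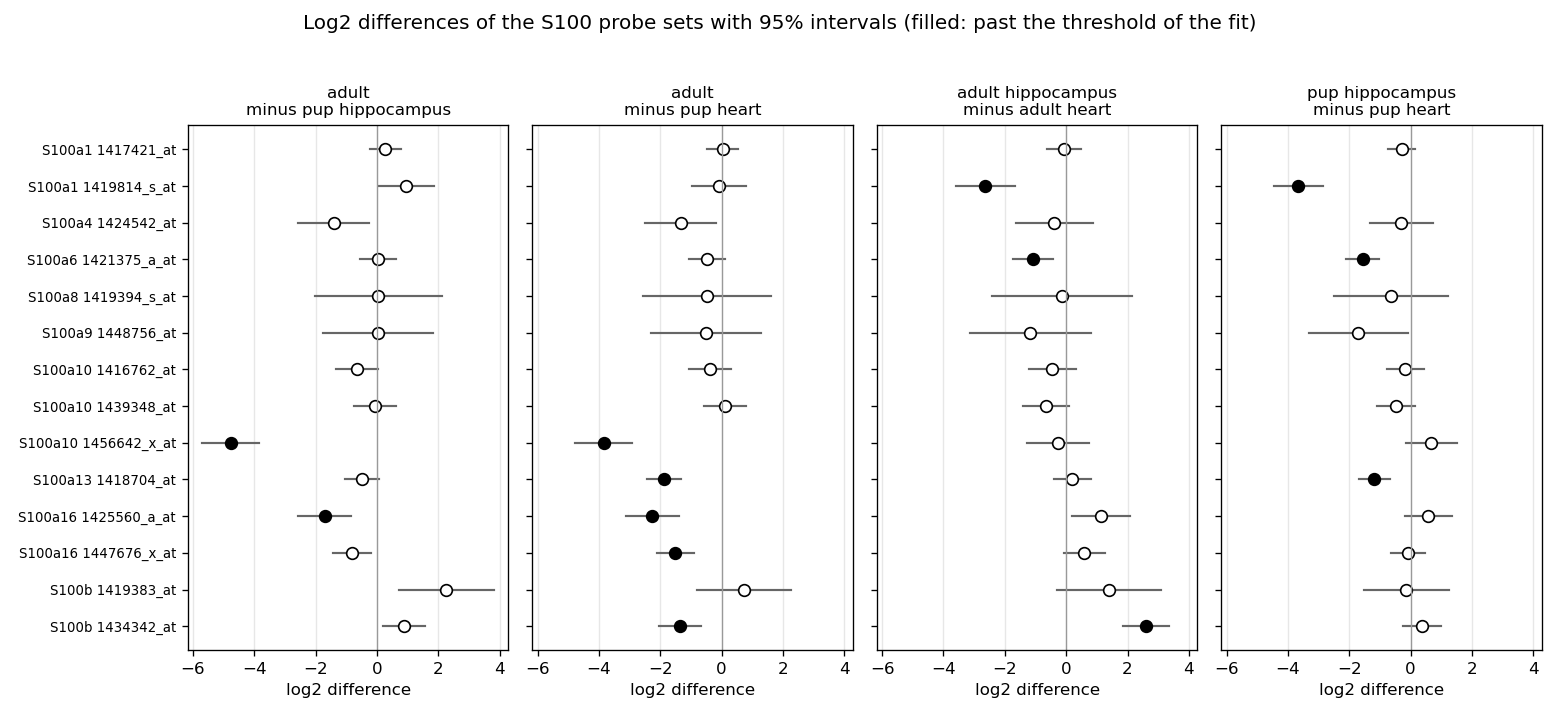
Log2 difference (x axis) of each S100 probe set in the age comparisons of hippocampus and heart and the tissue comparisons of adults and pups, each as the first group minus the second, with 95% intervals from the limma fit. Filled points passed an adjusted p of 0.05. In the age comparisons every filled point lies below 0, and the lowest are those of S100a10 1456642_x_at at -4.77 in hippocampus and -3.84 in heart.

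S100a10, also known as p11, is the annexin A2 partner that also brings serotonin receptors and tissue plasminogen activator to the cell surface. Probe set 1456642_x_at read 10.01 and 10.33 in adult hippocampus, against 14.94, 14.70 and 15.18 in pup hippocampus. In adult heart it read 10.27 and 10.61, against 14.78, 13.34 and 14.70 in pup heart. All 4 adult samples lay below all 6 pup samples. The difference was -4.77 (SE 0.42, 95% interval -5.70 to -3.84) in hippocampus, or 27.3-fold lower in adults, and -3.84 (SE 0.42, -4.76 to -2.91) in heart, or 14.3-fold lower. These folds are as measured, and the pup values of 13.34 to 15.18 come near the highest value on any array (15.998), so an exact size should not be read from them. In bulk tissue, fewer cells of a type and less RNA per cell cannot be told apart. The tissues overlapped at both ages, with differences of -0.26 between the adult tissues and 0.67 between the pup tissues.

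The other probe sets of S100a10 were not called and lay at low levels, with every group mean below the sample medians of 8.73 to 8.98. Probe set 1416762_at averaged 7.75 in adult and 8.40 in pup hippocampus and 8.19 in adult and 8.57 in pup heart, a difference of -0.65 (95% interval -1.34 to 0.04) in hippocampus and -0.38 (-1.06 to 0.31) in heart. Probe set 1439348_at averaged 7.74 in adult and 7.80 in pup hippocampus and 8.39 in adult and 8.28 in pup heart, a difference of -0.06 (-0.74 to 0.62) and 0.10 (-0.58 to 0.79). Without detection calls, whether these probe sets could have shown a change was not tested. Over the 10 samples the x-type probe set had a Pearson r of 0.61 with 1416762_at and of -0.02 with 1439348_at. Whether 1456642_x_at also measures another transcript was not tested.

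S100a16, a widely expressed member, was also lower in adults. Probe set 1425560_a_at read 12.67 and 13.29 in adult hippocampus, against 14.62, 14.48 and 14.97 in pup hippocampus, and 12.35 and 11.35 in adult heart, against 13.68, 14.004 and 14.64 in pup heart. Adults and pups did not overlap in either tissue. Adult heart replicate 1 averaged technical arrays of 13.16 and 11.54, a gap of 1.61, and both arrays lay below all pup heart samples. The difference was -1.71 (SE 0.39) in hippocampus, 3.27-fold lower in adults, and -2.26 (SE 0.39) in heart, 4.79-fold lower, and both were called. The hippocampus call was lost without adult hippocampus replicate 1 (-1.40), adult hippocampus replicate 2 (-2.02) or pup hippocampus replicate 3 (-1.57).

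The other S100a16 probe set, 1447676_x_at, ran alongside, with a Pearson r of 0.84 over the 10 samples. Its mean was 9.76 in adult and 10.59 in pup hippocampus, a difference of -0.83 (95% interval -1.44 to -0.21) that was not called. Its mean in heart was 9.17 for adults and 10.68 for pups, where a difference of -1.51 (SE 0.27) was called, though not without adult heart replicate 1 (-1.43). For 1425560_a_at adult hippocampus lay above adult heart in every sample, with a difference of 1.13 (0.18 to 2.08) that was not called. In pups the tissues overlapped for both probe sets.

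S100a13, which takes part in the release of Fgf1 and interleukin 1 alpha from cells, differed with age in heart. Probe set 1418704_at read 9.13 and 9.01 in adult heart, against 11.10, 10.89 and 10.85 in pup heart. The difference was -1.87 (SE 0.25, 95% interval -2.43 to -1.32), or 3.66-fold lower in adults. In hippocampus it read 9.43 and 9.12 in adults, against 9.70, 10.07 and 9.52 in pups, a difference of -0.49 (-1.05 to 0.06) that was not called. Pup heart thus stood above the other groups, and pup hippocampus lay 1.18 (SE 0.22) below pup heart, while the adult tissues overlapped. The age difference in hippocampus minus that in heart was 1.38 (0.60 to 2.17) and was not called over all probe sets.

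Markers of other cell types moved with age in the same hearts. Of 7 fibroblast genes, 5 were lower in adult heart, with mean log2 levels of 10.73 and 10.72 in adult heart, against 13.91, 13.13 and 13.81 in pup heart. Of 5 endothelial genes, 3 were lower, with means of 10.09 and 10.16 in adult heart, against 12.03, 11.83 and 12.15 in pup heart. In hippocampus 3 of 7 fibroblast genes and 1 of 5 endothelial genes were lower in adults. Their part in the lower S100 values of adult heart was not tested.

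S100a1, the heart member of the family, gave different pictures on its pair of probe sets. Probe set 1419814_s_at read 11.04 and 11.18 in adult hippocampus, against 13.69 and 13.79 in adult heart, and 10.62, 9.68 and 10.16 in pup hippocampus, against 14.39, 13.08 and 13.99 in pup heart. Every hippocampus sample lay below every heart sample of its age. The difference was -2.63 (SE 0.44), or 6.20-fold lower in adult hippocampus, and -3.67 (SE 0.36), or 12.7-fold lower in pup hippocampus. Pup hippocampus replicate 1, the highest of its group, also had the highest cardiomyocyte marker mean of the group (11.04). The order did not hold for the others: replicate 2, the lowest, had a mean of 9.60. Replicate 3, between them at 10.16, had the lowest mean (8.54). The part of cardiac RNA in the pup hippocampus values was not tested.

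With age, 1419814_s_at differed by -0.08 in heart (95% interval -0.97 to 0.81), where the ages overlapped. In hippocampus the adult samples lay above the pup samples by 0.96 (0.07 to 1.84), which was not called. Probe set 1417421_at lay between 14.98 and 15.51 in all 10 samples, close to the highest value on any array (15.998), with a range of 0.53, and no comparison called it.

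S100b, the astrocyte member, was the only family member called higher in hippocampus. Probe set 1434342_at read 10.31 and 10.74 in adult hippocampus, against 8.08 and 7.77 in adult heart, a difference of 2.60 (SE 0.33, 95% interval 1.85 to 3.34), or 6.06-fold higher. In pup hippocampus it read 9.91, 9.70 and 9.34, against 8.83, 9.50 and 9.51 in pup heart. These pup groups overlapped, with a difference of 0.37 (-0.24 to 0.98). Adult heart was thus the lowest group and adult hippocampus the highest. Both adult heart values lay below the medians of those samples (8.98 and 8.97), and no detection calls were used.

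The age differences of this probe set ran in opposite directions. Adult hippocampus lay above pup hippocampus in every sample, by 0.88 (95% interval 0.20 to 1.56), which was not called. Adult heart lay below pup heart in every sample, with a difference of -1.35 (SE 0.30, 2.56-fold lower), which was called, but not without adult heart replicate 1 (-1.51) or replicate 2 (-1.20). The age difference in hippocampus minus that in heart was 2.23 (SE 0.43, 1.27 to 3.19) and was called. It was not called without any 1 of the 4 adult samples (2.02 to 2.44) or without pup hippocampus replicate 2 (2.26) or 3 (2.07).

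Glial markers stand beside S100b. Of 8 astrocyte genes, 4 were higher in adult hippocampus than in adult heart. In the same comparison of pups 4 were higher and 1, Gja1, was lower (-1.67). Aldh1l1, a folate enzyme used as an astrocyte marker, was 2.77 higher between the adult tissues (SE 0.25, limma adjusted p = 0.000176) and 3.08 higher between the pup tissues (adjusted p = 9.08e-06) on its brightest probe set. Its other probe set was called the other way between the adult tissues (-1.001, adjusted p = 0.0205) and was not called between the pup tissues (-0.27). Sox9, another of the 4 genes higher between the adult tissues, also had a probe set called the other way there (-0.97, limma adjusted p = 0.0347). Aldoc was 4.17 higher between the adult tissues and 7.08 higher between the pup tissues. For age in hippocampus, Gja1 was higher in adults (2.27), though another of its probe sets was called the other way (-1.31). Aldoc was lower in adults (-1.36), and the other 6 astrocyte genes were not called. The mean log2 level of the 8 genes was 12.51 and 12.20 in adult hippocampus, against 12.10, 12.53 and 12.40 in pup hippocampus, and the groups overlapped. Of 7 oligodendrocyte genes, 3 (Cnp, Mal and Ermn) were higher in adult than in pup hippocampus. The rise of Cnp was not confined to hippocampus. In heart 2 were higher in adults, Cnp (1.37, against 1.42 in hippocampus) and Olig1 (1.34, against -0.51 in hippocampus, not called). Mal (-0.58) and Ermn (-0.19) were not called in heart. The part of these glial markers in the S100b values was not tested.

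The other S100b probe set, 1419383_at, could not be read in the same way. Its values were 12.41 and 9.25 in adult hippocampus, against 8.52, 8.63 and 8.58 in pup hippocampus, and 9.42 and 9.46 in adult heart, against 8.52, 8.98 and 8.65 in pup heart. The technical arrays of adult hippocampus replicate 1 read 9.75 and 15.08, a gap of 5.33, while over all probe sets the median gap between technical arrays was 0.35 and 3.16% of gaps passed 2. The age difference in hippocampus was 2.26 (95% interval 0.71 to 3.81) and was not called. In heart it was 0.73 (-0.82 to 2.28), also not called, with the averaged adults above pups in every sample, the opposite direction to 1434342_at. The technical arrays of adult heart read 10.29 and 8.56 in replicate 1 and 9.99 and 8.94 in replicate 2. Both second arrays lay within the pup heart range of 8.52 to 8.98, so this direction did not hold on them. The age difference in hippocampus was 3.84 without adult hippocampus replicate 2, and 0.93 and called when replicate 1 was taken from its first array alone. Its Pearson r with 1434342_at over the 10 samples was 0.22.

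**Figure D3:**
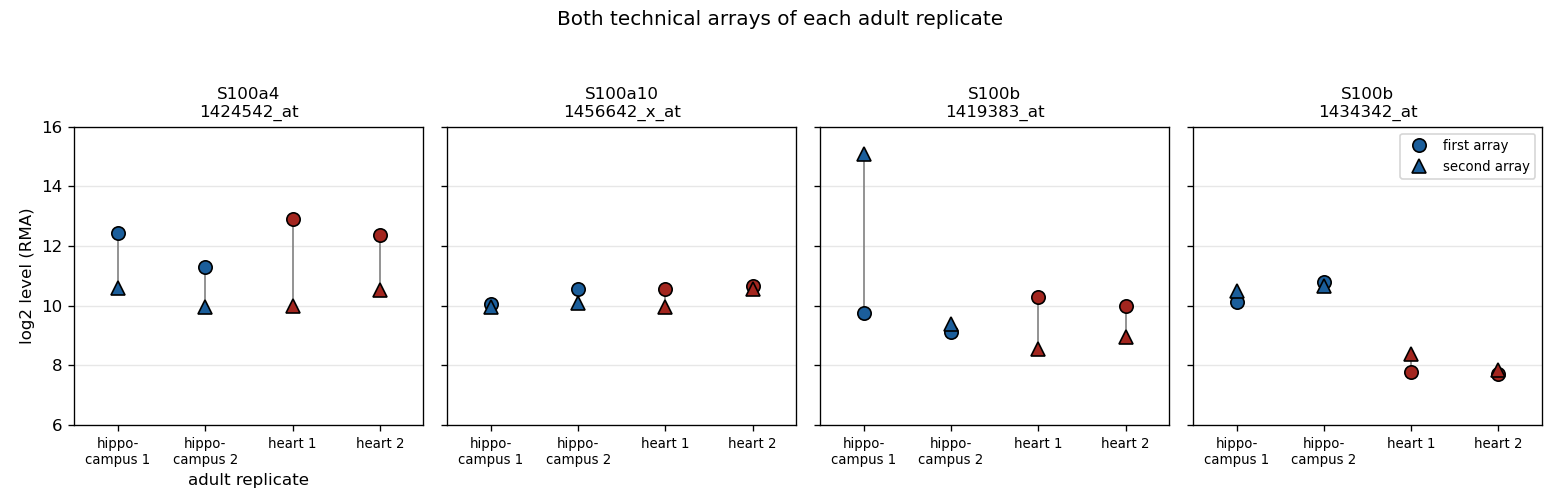
Log2 level (RMA, y axis) on the first (circle) and second (triangle) technical array of each adult replicate, for the pair of S100b probe sets, S100a4 and S100a10 1456642_x_at. Hippocampus is blue and heart is red. The S100b 1419383_at gap of 5.33 in hippocampus replicate 1 is the widest of these, and S100a4 was lower on the second array in all 4 replicates.

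S100a4, found in fibroblasts and migrating cells where it binds nonmuscle myosin, had means that were lower in adults in both tissues without a call. Probe set 1424542_at read 11.50 and 10.62 in adult hippocampus, against 11.49, 13.34 and 12.59 in pup hippocampus, and 11.45 and 11.44 in adult heart, against 12.79, 12.27 and 13.28 in pup heart. The hippocampus groups touched and the heart groups did not overlap. The differences were -1.42 (95% interval -2.57 to -0.26) and -1.33 (-2.49 to -0.18). Without pup hippocampus replicate 1 both were called, at -1.91 and -1.33.

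The technical arrays of S100a4 were far apart. In adult hippocampus replicates 1 and 2 the first array read 12.43 and 11.28, and the second array 10.58 and 9.95. In adult heart replicates 1 and 2 the first array read 12.92 and 12.36, and the second 9.99 and 10.53. The gaps ran from 1.33 to 2.93, and each adult value of S100a4 is the mean of such a pair. Both first arrays of adult heart lay within the pup heart range of 12.27 to 13.28, so the separation of the heart groups did not hold on them.

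S100a6, or calcyclin, is found in fibroblasts and other dividing cells and binds Cacybp and Sugt1. Probe set 1421375_a_at read 7.13 and 7.59 in adult hippocampus, against 8.42 and 8.44 in adult heart, and 7.39, 7.27 and 7.34 in pup hippocampus, against 9.17, 8.51 and 9.03 in pup heart. Hippocampus lay below heart in every sample at both ages. All of these values except pup heart replicates 1 and 3 lay below the sample medians of 8.73 to 8.98, and no detection calls were used. The difference was -1.08 (SE 0.29, 2.11-fold lower) in adults and -1.57 (SE 0.24, 2.96-fold lower) in pups. The adult call was lost without adult hippocampus replicate 1 (-0.84) or 2 (-1.31), or without adult heart replicate 1 (-1.09) or 2 (-1.07). With age the difference was 0.02 (95% interval -0.57 to 0.62) in hippocampus and -0.47 (-1.06 to 0.13) in heart.

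S100a8 and S100a9, the neutrophil pair, stood out in a single heart. S100a8 1419394_s_at read 8.34 and 8.49 in adult hippocampus, against 8.70, 8.39 and 8.03 in pup hippocampus, and 8.75 and 8.36 in adult heart, against 11.45, 7.32 and 8.32 in pup heart. S100a9 1448756_at read 8.70 and 8.18 in adult heart, against 10.70, 8.16 and 7.98 in pup heart. Pup heart replicate 1 had the highest level of both genes among the 10 samples. In hippocampus S100a9 read 7.13 and 7.41 in adults and 8.46, 6.50 and 6.75 in pups. Neither gene was called in any comparison, and the intervals were wide, at -2.55 to 1.60 for the S100a8 age difference in heart and -2.30 to 1.29 for that of S100a9. Their Pearson r was 0.77 over the 10 samples and 0.15 over the 9 samples without pup heart replicate 1.

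Markers of blood cells were set beside this pair. The mean log2 level of 8 granulocyte genes was 9.86 in pup heart replicate 1 and 9.72 and 9.91 in replicates 2 and 3, so this list did not set replicate 1 apart. The mean of 4 erythroid genes was 11.04 and 10.86 in adult heart, against 11.49, 10.90 and 10.32 in pup heart replicates 1, 2 and 3. Of these, Alas2, the first enzyme of heme synthesis in red cell precursors, read 11.20, 10.38 and 9.43 in pup heart replicates 1, 2 and 3, and Slc4a1, the red cell anion exchanger, 11.60, 9.65 and 9.30. Replicate 1 was the highest of the pup hearts for 3 of the 4 erythroid genes and the lowest for Hba-a1, an alpha globin gene, which read 8.81, 9.55 and 8.995. It was the highest for 2 of the 8 granulocyte genes, Mmp8 (9.51, against 8.42 and 8.01) and Ltf (9.42, against 8.77 and 8.33). It was the lowest for 2, Cxcr2 (11.08, against 11.78 and 11.26) and Lcn2 (6.543, against 6.545 and 8.21), and for Lcn2 it nearly tied with replicate 2. The part of blood in the S100a8 and S100a9 values was not tested.

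**Figure D4:**
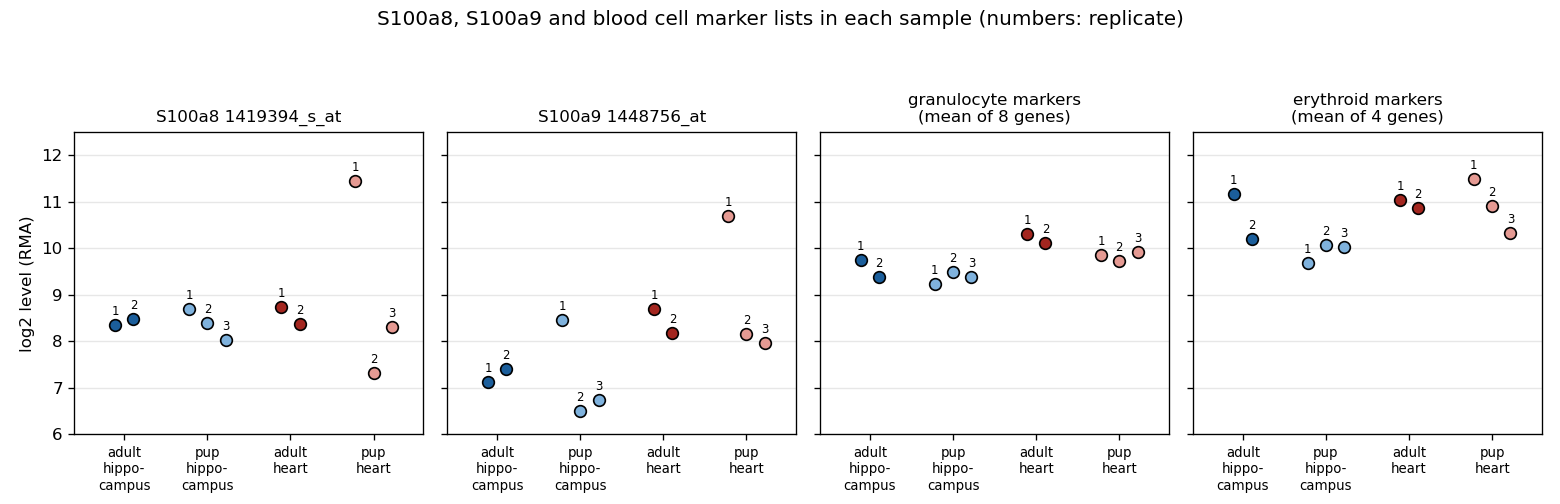
Log2 level (RMA, y axis) of S100a8 and S100a9 and the mean log2 level of 8 granulocyte and 4 erythroid marker genes in every sample, numbered by replicate. Pup heart replicate 1 stands apart for S100a8 (11.45) and S100a9 (10.70), while its granulocyte mean (9.86) lies between those of the other pup hearts.

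Among 7 further S100 genes, 4 could be measured (S100a3, S100a5, S100a14 and S100g), and 1 call was made over all comparisons. S100g, the intestinal and renal calcium buffer calbindin-D9k, read 8.13, 7.94 and 7.14 in pup hippocampus, against 9.79, 10.12 and 9.61 in pup heart. The difference was -2.10 (SE 0.29, 4.29-fold lower in pup hippocampus, limma adjusted p = 0.00101). In the other comparisons 0 of 4 were called.

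Annexins are calcium-dependent membrane proteins, and several bind S100 dimers. On the brightest probe set of each gene, 0 of 7 measured annexins were called for age in hippocampus and 2 were lower in adult heart than in pup heart. These were Anxa3 at -1.79 (SE 0.35, limma adjusted p = 0.00752) and Anxa5 at -1.48 (SE 0.36, adjusted p = 0.0177). Anxa5 was also lower in pup hippocampus than in pup heart, at -1.85 (adjusted p = 0.0037). Anxa2, the partner of S100a10, was not called on its brightest probe set, which read 12.87 and 12.70 in adult hippocampus, against 12.70, 13.22 and 12.39 in pup hippocampus. Its x-type probe set 1437692_x_at, chosen after its values were seen, was lower in adults, with a difference of -2.49 in hippocampus (adjusted p = 0.00842) and -3.64 in heart (adjusted p = 0.00125). Probe sets of 1 gene also disagreed where none was of the types a, s or x. For Anxa7, likewise chosen after its values were seen, 1 probe set was higher in adult than in pup heart (1.94, adjusted p = 0.0151) and another was lower (-1.90, adjusted p = 0.00264).

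Of 11 partners and targets, 1 was higher in adult than in pup hippocampus and 0 were lower. This was Htr1b, a serotonin receptor bound by S100a10, at 0.90 (SE 0.25, limma adjusted p = 0.0399). In heart 3 were higher in adults and 2 were lower. Ahnak, a scaffold held by the S100a10 and annexin A2 complex, was 1.69 higher on its brightest probe set (adjusted p = 0.0123) and differed by -2.50 on another (adjusted p = 0.00536). Plat, which encodes tissue plasminogen activator, was 1.98 higher (adjusted p = 0.0057) and Sugt1 1.39 higher (adjusted p = 0.0488). Myh9, the nonmuscle myosin heavy chain bound by S100a4, fell by 3.44 (10.9-fold, adjusted p = 0.000882), and Syt1, a synaptic vesicle calcium sensor, fell by 1.74 (adjusted p = 0.0186), though another Syt1 probe set was 1.74 higher (adjusted p = 0.00436). Between tissues Sugt1 (-1.50) and Il1a (-1.73) were lower in adult hippocampus than in adult heart. In pup hippocampus Myh9 was lower than in pup heart (-1.58), but 1.94 higher on another probe set (adjusted p = 0.0418), and Plat was higher (1.31). Over all the gene lists set beside the family, 120 calls were made on the brightest probe set of a gene, and for 10 of them, in 9 genes, another probe set of the gene was called in the opposite direction.

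Of 6 genes for receptors of secreted S100 proteins, Ager, Tlr4 and Bsg were called in no comparison. Fgfr1 was lower in adult than in pup hippocampus (-0.89, SE 0.24, limma adjusted p = 0.0372) and higher in hippocampus than in heart of pups (1.27, adjusted p = 0.00342). Ly96, the Tlr4 coreceptor, was 1.19 higher in adult than in pup heart (adjusted p = 0.0312) and was lower in adult hippocampus than in adult heart (-1.22, adjusted p = 0.0372). Cd36, a fatty acid and S100a8/S100a9 receptor, was lower in hippocampus than in heart in adults (-2.28) and in pups (-2.88). Tlr4 lay between 14.73 and 15.28 in all samples, near the top of the scale.

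Of 7 measured EF-hand and calcium-buffer genes outside the family, 4 were higher and 0 were lower in adult hippocampus than in adult heart, and 3 were higher and 0 lower in the same comparison of pups. Hpca, the hippocampal calcium sensor hippocalcin, was 1.98 higher in adult hippocampus (limma adjusted p = 0.00728) and 2.94 higher in pup hippocampus (adjusted p = 0.000238). Vsnl1, a related neuronal sensor, was 2.01 and 2.90 higher. With age 0 of 7 were called in hippocampus, and 2, Hpca and Vsnl1, were higher in adult heart than in pup heart.

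For each member whose brightest probe set ranged over at least 2 log2 units, which leaves out S100a1, the 3 genes with the most similar pattern over the 10 samples were found among 15126 candidate probe sets. The samples share their groups, preparation and arrays, so the correlations are a description. S100a10 1456642_x_at was closest to Eif4g2, Sox4 and Chchd1 (Pearson r 0.99 for each), and Sox4 read 9.91 and 9.96 in adult hippocampus, against 15.07, 14.93 and 14.83 in pup hippocampus. S100a16 was closest to Ppp2r1a, Snx3 and Eif4b (0.97 each), and S100a13 to Gjc1 (0.98), Cdc20 (0.97) and Plk1 (0.96). S100b 1434342_at was closest to Dennd6a (0.98), Itpka (0.97) and Rab10os (0.97). S100a6 was closest to Bola3, Ndufs7 and Hint3 (0.99 each), and S100a4 to Pcgf5, A830018L16Rik and Armcx6 (0.94 each). S100a8 was closest to Fnip1 (0.93), Fbxo43 (0.88) and Pde7a (0.88), and S100a9 to Apcdd1 (0.95), Fgf3 (0.94) and Gm7694 (0.93). Fnip1 read 11.74 in pup heart replicate 1 and 8.44 and 9.44 in replicates 2 and 3, so it was highest in the same heart as S100a8.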

How the data were processed

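RNA of 10 biological samples was measured on 14 Affymetrix mouse arrays. The authors deposited log2 values that they summarised per probe set with RMA 2.0, per the labels. Their methods also describe later median centring and scaling by the 10th to 90th percentile range, which the deposited values had not received and which was run here as an alternative. No detection calls were used, so absence could not be judged. Precision is limited by how many arrays were run. Of 45101 probe sets, 64 array controls were left out of the tests.

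Gene symbols came from the platform annotation: 34958 probe sets had 1 gene, 932 several and 9211 none. Adult technical arrays were averaged by the replicate number in the sample titles. The source names instead number each adult array as a replicate, which was an alternative. The sources call the adult RNA mRNA in one place and total RNA in another.

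Group means of the 4 groups were fitted with limma 3.58.1 in R 4.3.3 (6 residual degrees of freedom), and 5 contrasts were tested two-sided with Benjamini-Hochberg adjustment over 45037 probe sets at 0.05. The fit was tested on simulated data. The members and all gene lists were chosen with earlier results of these data known. Every member probe set is described. Genes of the 14 other lists (95 of 108 measured) were counted on their brightest probe set and named up to 4 called or 2 uncalled per comparison. Alternatives covered scaling, replicates, filtering, probe set types, variance models, the methods' t-test, a replicate block and leaving out each sample. Promoter sequences and positions came from RefSeq (GRCm38.p6). Of the 10 members, 9 had a promoter window.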

Additional observations from a re-analysis of the deposited data

Results flagged for a closer look

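S100b 1434342_at was the one family result for which the age differences of the tissues differed by a test of the difference itself. The age difference in hippocampus minus the age difference in heart was 2.23 (SE 0.43) and passed the threshold of the limma fit, in which 1.18% of all probe sets were higher. It did not pass with the replicate block (adjusted p = 0.0569), without any 1 of the 4 adult samples, or without pup hippocampus replicate 2 or 3 (limma adjusted p of 0.0569 to 0.109 over these). Both adult hippocampus samples (10.31 and 10.74) lay above all 3 pup hippocampus samples (9.91, 9.70 and 9.34), and both adult heart samples (8.08 and 7.77) lay below all pup heart samples (8.83, 9.50 and 9.51). The adult heart values also lay below the medians of those samples (8.98 and 8.97). The adult samples share their source and preparation, and age and preparation cannot be told apart in either tissue. The other S100b probe set, 1419383_at, had a difference between the age differences of 1.53 that was not called. In heart its averaged adult values lay above every pup sample (0.73, not called), though the second technical array of each adult lay within the pup range. No group was large enough for a check of single outlying samples.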

How the results depend on the processing

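Of the 14 calls in the family, 9 were kept under every one of the 19 limma alternatives that measured them, 5 were lost at least once, and none reversed. The methods' t-test with Benjamini-Hochberg adjustment at 0.05 kept 3 of the 13 calls it could test (S100a10 1456642_x_at for age in hippocampus, and S100a1 1419814_s_at and S100a6 for tissue in pups) and lost 10. Counting each adult array as a replicate gave 4 calls for age in hippocampus, 5 for tissue in adults and 2 for the difference between the age differences. Counts under the alternatives are given here without the shares over all probe sets. They describe how the calls held and are not read as a result about the family. Without probe sets of the types a, s and x the counts were 0, 2, 1 and 1 for age in hippocampus, age in heart, tissue in adults and tissue in pups, over 8 probe sets. At 0.05 the methods' t-test called 0 for age in heart and 0 for tissue in adults, and at 0.1% it called 0 in all 4 comparisons (4, 7, 4 and 3 probe sets had an unadjusted p under 0.05, in the order age in hippocampus, age in heart, tissue in adults and tissue in pups). It uses only the 2 groups compared. Leaving out each sample in turn gave 1 to 3 calls for age in hippocampus, 3 to 6 for age in heart, 2 to 3 for tissue in adults, 3 for tissue in pups in every case, and 0 to 1 for the difference between the age differences. With the replicate block, 0 were called for the difference between the age differences (S100b 1434342_at 2.23), and the block changed no other call. Deviations from the group means in samples of the same replicate number had correlations of -0.10 to 0.20. With 2 or 3 samples in a group, such correlations cannot decide whether the numbers pair the samples. Centring and scaling, and quantile normalization, put the median age difference of all probe sets in heart at -0.03 and 0.003, against 0.11 as deposited, and ended no family call. Where the sample left out was an adult one, its tissue kept 1 adult sample, assumed to vary like the others. The use of a single array for adult hippocampus replicate 1 was chosen after seeing the data.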
